A study of Mus musculus with 2 samples.

Results

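The genes described here are the integrins and the laminins, taken by symbol from the gene lists of the 2 libraries: every Itga and Itgb gene named with a number or with d, e, l, m, v or x, and every Lama, Lamb and Lamc gene. The rule gave 38 of 32285 genes, 18 integrin alpha genes, 9 integrin beta genes and 11 laminin chain genes, and it left out genes that only carry the name, such as Itgb1bp1 and Itgb3bp. The study profiled tumour tissue from C57BL/6 mice by droplet single-cell RNA sequencing, with 1 library from tumours of MC38-RSPO3-OE cells, called RSPO3-OE here, and 1 from tumours of MC38-Ctrl cells, called Ctrl. MC38 is a mouse colon carcinoma line, and RSPO3 is a secreted R-spondin, a family that strengthens Wnt signalling. The labels call the tissue a xenograft although cells and host are both mouse, and they give neither the number of mice behind a library nor the site, the time of harvest or the vector of the control cells. With 1 library per genotype there is no spread between replicates and no test: every interval below is an exact 95% interval that covers counting error only, and each difference is one between these 2 libraries.

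Integrins are receptors made of 1 alpha and 1 beta chain that join cells to the matrix or to other cells and signal through the proteins bound to their tails. The beta 1 chain pairs with many alpha chains that bind collagens, laminins or fibronectin, the alpha V chain pairs with several beta chains to bind proteins with the RGD motif, and the beta 2 chain pairs with alpha L, alpha M, alpha X or alpha D on leukocytes. Laminins are trimers of an alpha, a beta and a gamma chain and form the sheet of a basement membrane. The laminin with the alpha 4 chain is known from vessels and mesenchymal tissue, that with alpha 5 from epithelia and vessels, and that with alpha 3 from the anchoring complex of epithelia, where the alpha 6 beta 4 integrin binds it.

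The RSPO3-OE library held 7314 barcodes and 155615189 UMIs (unique molecular identifiers, 1 per transcript read) and the Ctrl library 7301 barcodes and 143881763 UMIs. The libraries shared 7 barcodes. After filters on genes and mitochondrial reads and the removal of called doublets, 6993 and 6895 cells were kept. Cells were classed by their UMIs: tumour cells had no Ptprc, the leukocyte gene, and at least 1 Hmga2, macrophages at least 20 of C1qa, C1qb and C1qc together, and T cells at least 2 of Cd3d, Cd3e and Cd3g. This gave 4202 RSPO3-OE and 4316 Ctrl tumour cells, 1181 and 1164 macrophages, and 406 and 203 T cells, while 1169 and 1200 kept cells passed no gate and 35 and 12 passed more than 1 gate and were left out. Levels are counts per 1000000 UMIs of the class (CPM), and since the chemistry reads 1 end of each transcript they are not scaled by gene length when genes are set side by side. The 11 macrophage genes summed to 40274 and 50084 CPM in macrophages against 81.2 and 88.5 in tumour cells. The 10 T cell genes summed to 6499 and 5181 CPM in T cells against 3.49 and 2.96 in tumour cells. The 3 tumour genes summed to 1015 and 510 CPM in tumour cells, 36.0 and 20.8 in macrophages, and 78.4 and 226 in T cells. These sums include the genes that set the gates, among them Hmga2, so part of each was fixed by the gate. The listed macrophage and T cell genes outside the gates were also each higher in their own class than in tumour cells. Csf1r, for example, stood at 513 and 514 CPM in macrophages against 0.858 and 0.963 in tumour cells. Trbc2 stood at 1132 and 1050 CPM in T cells against 0.459 and 0.198 in tumour cells. In tumour cells the 4 epithelial genes summed to only 1.61 and 1.20 CPM, with no Epcam UMI, and the 5 fibroblast genes to 2254 and 1858 CPM. The 4 Y-linked genes of the host summed to 0.364 and 0.189 CPM in tumour cells and to between 96.4 and 163 CPM in macrophages and T cells. Rspo3 stood at 107 CPM in RSPO3-OE tumour cells, with 12369 UMIs, and had 0 UMIs in Ctrl tumour cells. Free or carried RNA was uneven: the C1q genes stood in tumour cells at no more than 0.164% of their macrophage level, but Hmga2 stood in T cells at 21.8% of its tumour cell level in Ctrl, with 4.63% in RSPO3-OE.

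Tumour cells, macrophages and T cells each carried their own set of these genes in both libraries. Members and background genes were tested where they had at least 50 UMIs over both classes and both libraries. Of the 38 members, 6 were under this minimum for tumour cells and macrophages, 7 for tumour and T cells and 18 for macrophages and T cells. Of the members, 11 were at least 4-fold higher in tumour cells than in macrophages in both libraries, where 11.8% of all genes were, among them Itga2b, Itga3, Itga7, Itga10, Itgb3, Itgb4, Itgb8, Lamb1, Lamb2 and Lamc1. Another 7 were at least 4-fold higher in macrophages, against 9.61% of all genes: Itga4, Itga8, Itga9, Itgal, Itgam, Itgax and Itgb2. Against T cells, tumour cells were higher in 7 members (background 4.4%), among them Itga5, Itga6, Itga10, Itgb4, Lamb1 and Lamb2. T cells were higher than tumour cells in 6 (background 6.75%), the collagen receptor chain Itga1, the leukocyte chains Itga4, Itgae, Itgal and Itgb2, and the laminin chain Lamb3. Macrophages stood above T cells in Itga9, Itgam, Itgax and Itgb5 (background 7.07%), and T cells above macrophages in Itga1, Itga3, Itgb3 and Lamb3 (background 4.85%). Itga3 rested there on 14 RSPO3-OE and 27 Ctrl T cell UMIs, at 4.14 and 13.6 CPM, where tumour cells had 15.7 and 29.7 CPM. Without T cells that held an Hmga2 UMI it was at 3.26 and 7.11 CPM, on 10 UMIs in each library. The part of carried RNA in this Itga3 difference was not tested.

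**Figure D1:**
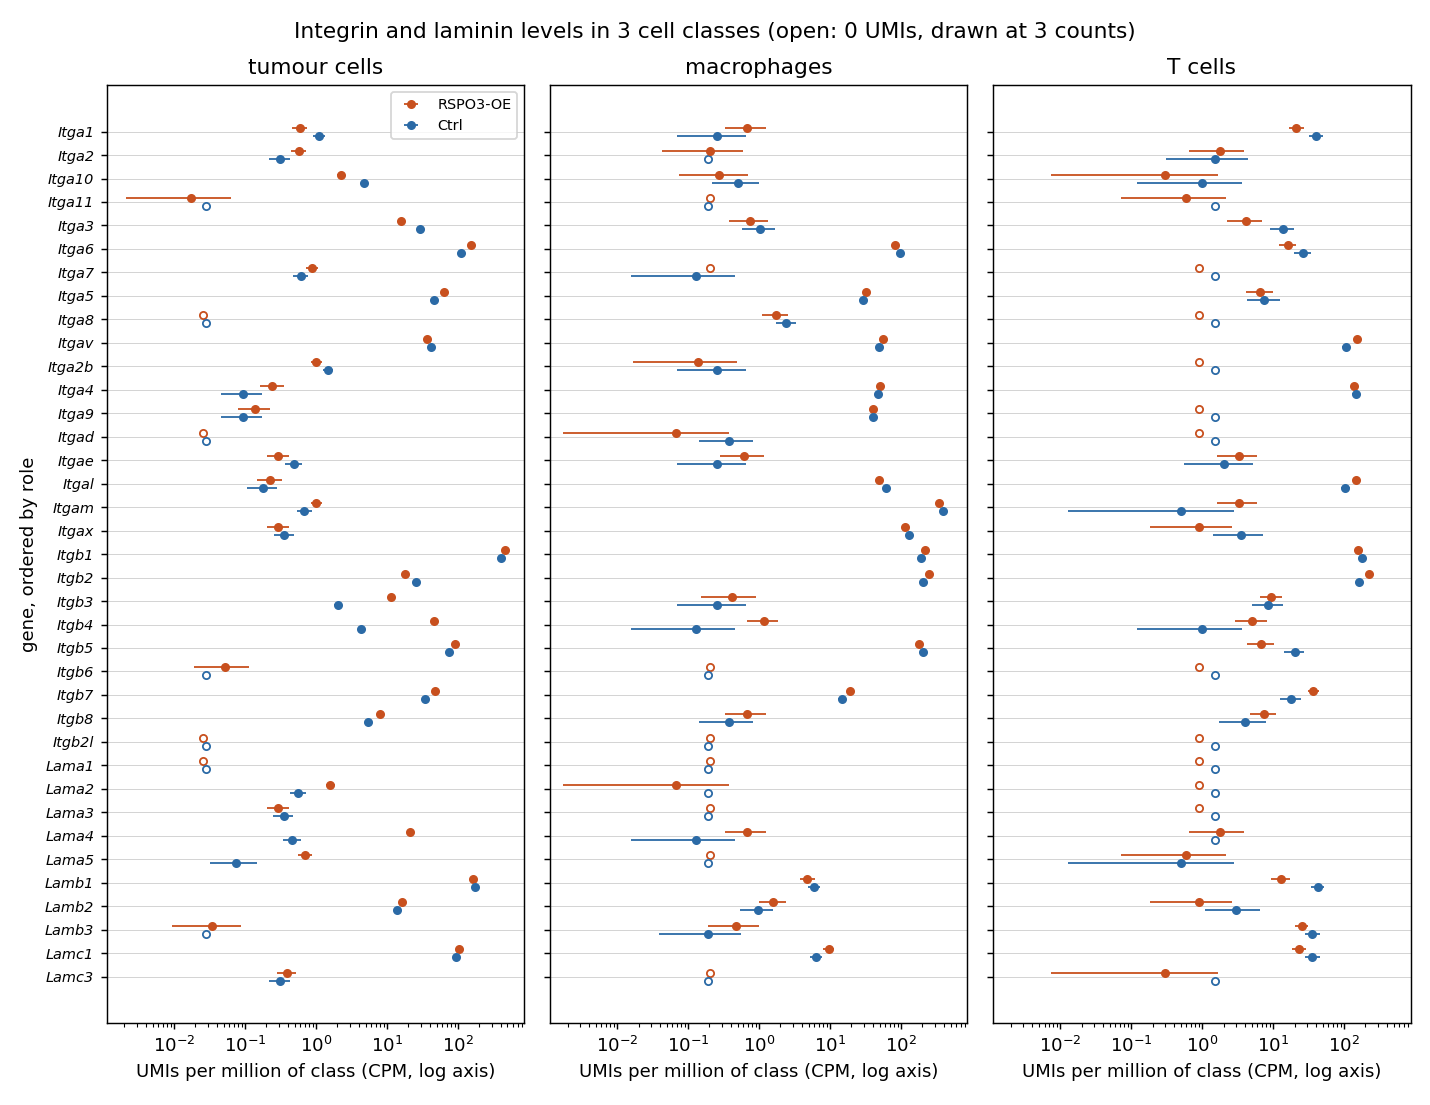
Level of 37 of the 38 genes in tumour cells, macrophages and T cells, in CPM on a log axis, with exact 95% Poisson intervals; RSPO3-OE is orange and Ctrl blue, and open points are genes with 0 UMIs drawn at the floor of 3 counts. Lama4, Itgb4, Lama5 and Itgb3 show the widest gaps between the libraries in tumour cells, while in macrophages the points of the highest genes lie close together.

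The main comparison asks how tumour cells of the RSPO3-OE library differed from those of the Ctrl library. A pair of laminin alpha chains and a pair of integrin beta chains stood far above their control level: Lama4 was 45.3-fold, Itgb4 10.7-fold, the scarce Lama5 9.41-fold and Itgb3 5.49-fold higher, while the chains that carry most of the transcripts, Itgb1, Lamb1, Itga6 and Lamc1, lay within 1.5-fold. A member was counted as different where the levels differed by at least 1.5-fold and it had at least 50 UMIs over both libraries in the class. Of the 38 members 28 reached that minimum in tumour cells, 6 had fewer UMIs (Itga4, Itga9, Itga11, Itgal, Itgb6 and Lamb3), and 4 had none (Itga8, Itgad, Itgb2l and Lama1). By this rule 7 members were higher in RSPO3-OE, 25.0% of those tested where 9.93% of all 13030 genes tested were, and 4 were lower, 14.3% against 14.4% of all genes, and 24.3% of all genes passed in either direction. The higher members included Lama4, Itgb4, Lama5, Itgb3, Lama2 and Itga2, and the lower ones were Itga10, Itga3, Itga1 and Itgae. The median log2 ratio was 0.30 over the tested members and -0.10 over all genes.

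**Figure D2:**
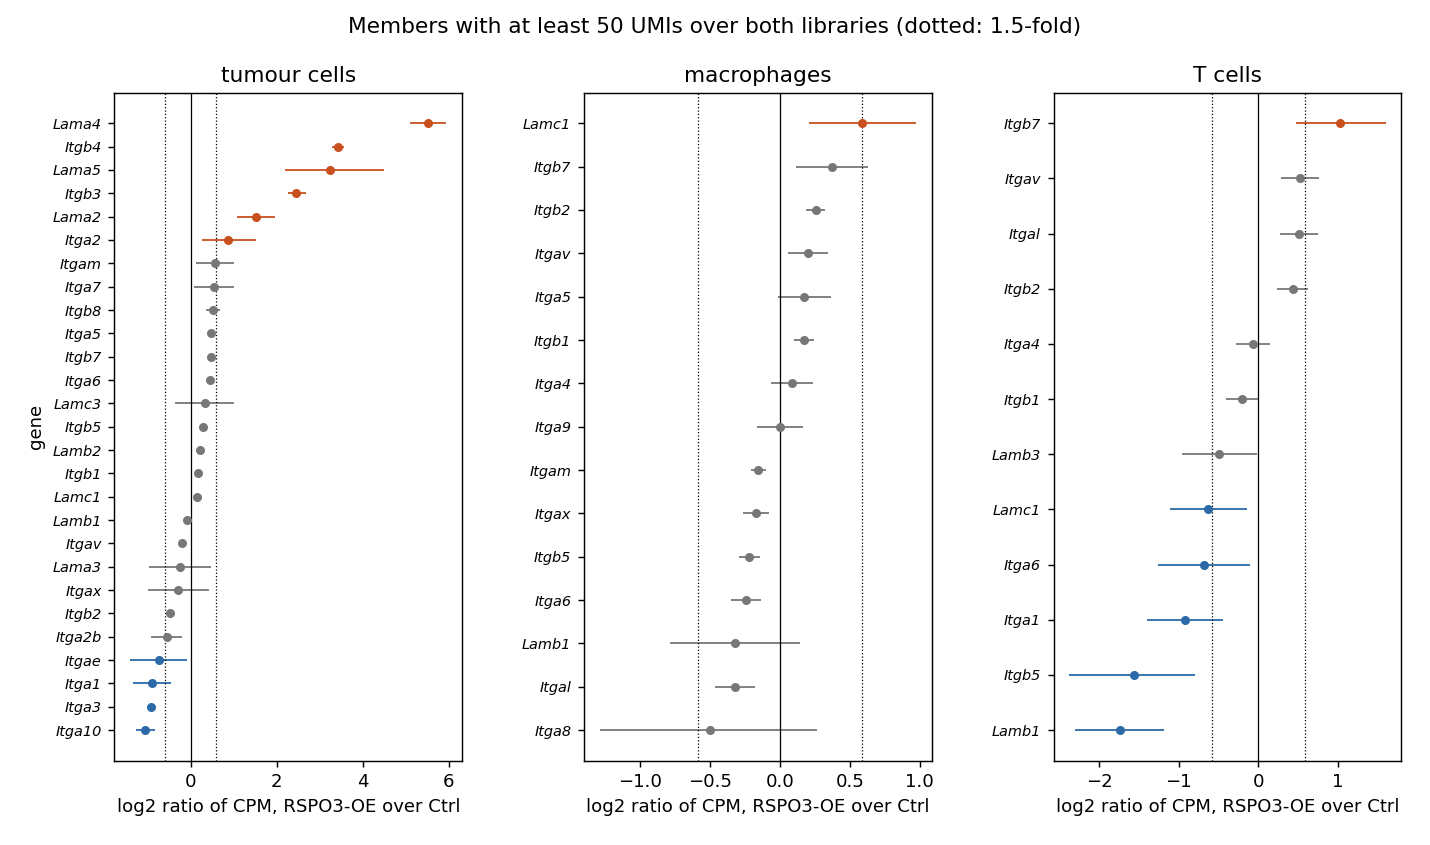
Log2 ratio of CPM, RSPO3-OE over Ctrl, for members with at least 50 UMIs over both libraries, by cell class, with exact binomial 95% counting intervals; dotted lines mark 1.5-fold, and orange and blue points lie past it. The tumour cell axis reaches 5.50 for Lama4, and 14 of the 15 macrophage points lie inside the dotted lines.

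Among the 5 laminin alpha chains, 3 were higher in the RSPO3-OE tumour cells and none was lower, where 9.93% of all genes tested were higher. Lama4 (ENSMUSG00000019846, chromosome 10, 38965515 to 39110188 in mm10, plus strand, GENCODE vM21) had 2419 UMIs in RSPO3-OE against 49 in Ctrl, which is 21.0 CPM (20.1 to 21.8) against 0.462 CPM (0.342 to 0.611). Its log2 ratio was 5.50 (5.10 to 5.94). Lama5 (ENSMUSG00000015647, chromosome 2, 180176373 to 180225859, minus strand) was scarce in both libraries, with 82 UMIs in RSPO3-OE against 8 in Ctrl. Its levels were 0.711 CPM (0.565 to 0.882) and 0.0755 CPM (0.0326 to 0.149), and its log2 ratio was 3.23 (2.19 to 4.49). Lama2, the alpha chain of muscle and nerve laminins (ENSMUSG00000019899, chromosome 10, 26980036 to 27619758, minus strand), stood at 1.59 CPM (1.37 to 1.84) in RSPO3-OE against 0.557 CPM (0.424 to 0.718) in Ctrl, a log2 ratio of 1.52 (1.09 to 1.97). In RSPO3-OE Lama4 stood far above the other alpha chains. Lama3, the alpha chain of the epithelial anchoring laminin, was at 0.295 against 0.349 CPM, a log2 ratio of -0.24 (-0.96 to 0.47). Lama1, known from early embryonic membranes, had no UMI and was not tested.

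Sequences upstream of the start are shown for 4 tumour cell members past 1.5-fold, 2 that were higher (Lama5 and Lama2) and 2 that were lower (Itga10 and Itga3), because RSPO3 acts on the Wnt pathway, whose nuclear factors TCF and LEF bind a known core motif. The letters are RefSeq's on GRCm38.p6, 250 bases before an annotated start, read 5′ to 3′ on the gene's strand, and of the 38 members 24 had an entry, Lama4, Itgb4 and Itgb3 not among them. Capitals mark a match to CTTTGNT, sought on both strands as the TCF and LEF core. The window for Lama5 is chr2:180225860-180226109 (minus strand), that for Lama2 chr10:27616943-27617192 (minus), that for Itga10 chr3:96645334-96645583 (plus), and that for the second start listed for Itga3 chr11:95069199-95069448 (minus).
Lama5: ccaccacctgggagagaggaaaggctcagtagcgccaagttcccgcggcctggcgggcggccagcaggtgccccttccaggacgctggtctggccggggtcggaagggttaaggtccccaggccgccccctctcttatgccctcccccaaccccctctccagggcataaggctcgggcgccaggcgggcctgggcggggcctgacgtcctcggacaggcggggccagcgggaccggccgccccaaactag
Lama2: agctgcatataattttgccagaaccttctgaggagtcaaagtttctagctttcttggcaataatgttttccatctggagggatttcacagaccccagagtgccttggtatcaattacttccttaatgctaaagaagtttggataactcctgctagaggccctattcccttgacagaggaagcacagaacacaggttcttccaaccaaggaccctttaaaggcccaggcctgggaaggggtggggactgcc
Itga10: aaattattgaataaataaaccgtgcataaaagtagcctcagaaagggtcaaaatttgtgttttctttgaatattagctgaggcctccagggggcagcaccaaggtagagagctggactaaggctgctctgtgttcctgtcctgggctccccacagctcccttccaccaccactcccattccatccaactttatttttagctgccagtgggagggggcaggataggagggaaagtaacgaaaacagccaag
Itga3: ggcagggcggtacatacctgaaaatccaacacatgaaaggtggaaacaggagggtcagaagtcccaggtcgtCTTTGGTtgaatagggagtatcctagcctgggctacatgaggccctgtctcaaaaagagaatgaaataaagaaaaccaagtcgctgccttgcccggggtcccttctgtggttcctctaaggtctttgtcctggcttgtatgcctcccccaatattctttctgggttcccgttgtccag
The match in Itga3 lies 178 bases before that start, and the window of the first start listed, chr11:95076715-95076964, holds 0 matches. The windows of Itga1 and Itga2, also past 1.5-fold in tumour cells, held 0 matches and are not printed. By the GENCODE positions, the Lama2 window and the printed Itga3 window lie inside the gene. The motif was found in 2 of the 27 windows of the 24 members, those of Itga3 and Lamb2, and in 16.0% of all 32536 upstream windows of that length. The AP-1 core TGANTCA was found in 1 of the 27, that of Itgax, against 6.73% of all windows. A match is a description of the letters and not a binding site. GC content was 72.4% in the Lama5 window, 47.2% in that of Lama2, 48.0% in that of Itga10 and 50.8% in that of Itga3.

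Lama4 was carried by many RSPO3-OE tumour cells and by few in Ctrl. In RSPO3-OE 1178 of 4202 tumour cells held a Lama4 UMI, 28.0% (26.7 to 29.4), and in Ctrl 19 of 4316, 0.440% (0.265 to 0.687). Since median depth was 25394 UMIs per RSPO3-OE and 21438 per Ctrl tumour cell, every cell was also thinned at random to 2000 UMIs, and the shares were then 5.02% (211 of 4200 cells) and 0.0232% (1 of 4313). As background, 0.762% of RSPO3-OE macrophages and 0.172% of Ctrl macrophages held a Lama4 UMI, at median depths of 11862 and 12645 UMIs. The Ctrl tumour cell share, at greater depth, lay between these macrophage shares, and the RSPO3-OE tumour cell share lay far above both. The transcript was unevenly spread, since the 10% of RSPO3-OE tumour cells with the most Lama4 held 62.3% of its UMIs and the highest cell held 26. In Ctrl the 19 cells held 49 UMIs, 4 of these cells held 5 or more and the highest held 8, so the UMIs were concentrated there too.

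Within the RSPO3-OE tumour cells, Lama4 was highest where genes of mesenchymal type were high. It stood at 69.0 CPM (61.1 to 77.5) in 177 cells with at least 5 UMIs of Lum and Pdgfra together, at 54.2 CPM (51.0 to 57.6) in 849 cells with at least 10 of Mgp, and at 9.60 CPM (8.73 to 10.5) in 1402 cells with at least 10 of Krt8, a keratin of simple epithelia. The same subsets of Ctrl tumour cells had 5.98 CPM (4.03 to 8.54), 1.52 CPM (0.494 to 3.55) and 0.147 CPM (0.00372 to 0.818). RSPO3-OE was therefore the higher library in each of these subsets, although the subsets differed in size: Ctrl had 220, 169 and 202 cells in them. The subsets also differed in median depth, at 20125, 20301 and 30972 UMIs in RSPO3-OE, and the part of depth in the differences between subsets was not tested. Lama4 was also lower in dividing cells, those with at least 3 UMIs of Mki67 and Top2a together, than in cells with none, at 10.8 against 45.4 CPM in RSPO3-OE and 0.194 against 1.19 CPM in Ctrl. The log2 ratio of the libraries was 5.80 (5.04 to 6.67) within the dividing and 5.25 (4.67 to 5.90) within the non-dividing cells. For Lama2 that ratio was 0.42 (-0.61 to 1.48) within the dividing and 1.43 (0.91 to 1.98) within the non-dividing cells.

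Other cells in these tumours carried Lama4 at higher levels than the tumour cells did. Host cells with no Ptprc and at least 2 Y-linked UMIs, 48 in RSPO3-OE against 23 in Ctrl, had 124 CPM (97.3 to 157) and 181 CPM (138 to 232), so the control tumours held the transcript outside the tumour class. Of all Lama4 UMIs in kept cells, 78.1% lay in tumour cells in RSPO3-OE against 29.3% in Ctrl, where 69.5% lay in cells of no class. Vessel markers moved with the tumour cell result: all 5 endothelial genes on the list were read in both libraries and summed to 16.1 CPM in RSPO3-OE against 2.53 CPM in Ctrl tumour cells, led by Cdh5 (8.19 against 0.528 CPM) and Pecam1 (7.24 against 1.92 CPM). Of the 3 pericyte genes, summed at 35.2 and 6.20 CPM, Cspg4 gave nearly all, Rgs5 had 0 UMIs in Ctrl, and their part in the Lama4 difference was not tested. Without the 1136 RSPO3-OE and 242 Ctrl cells that held any endothelial UMI, Lama4 was 21.2 against 0.489 CPM, and without the 33 and 19 cells that held a Y-linked UMI it was 20.7 against 0.465 CPM.

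**Figure D3:**
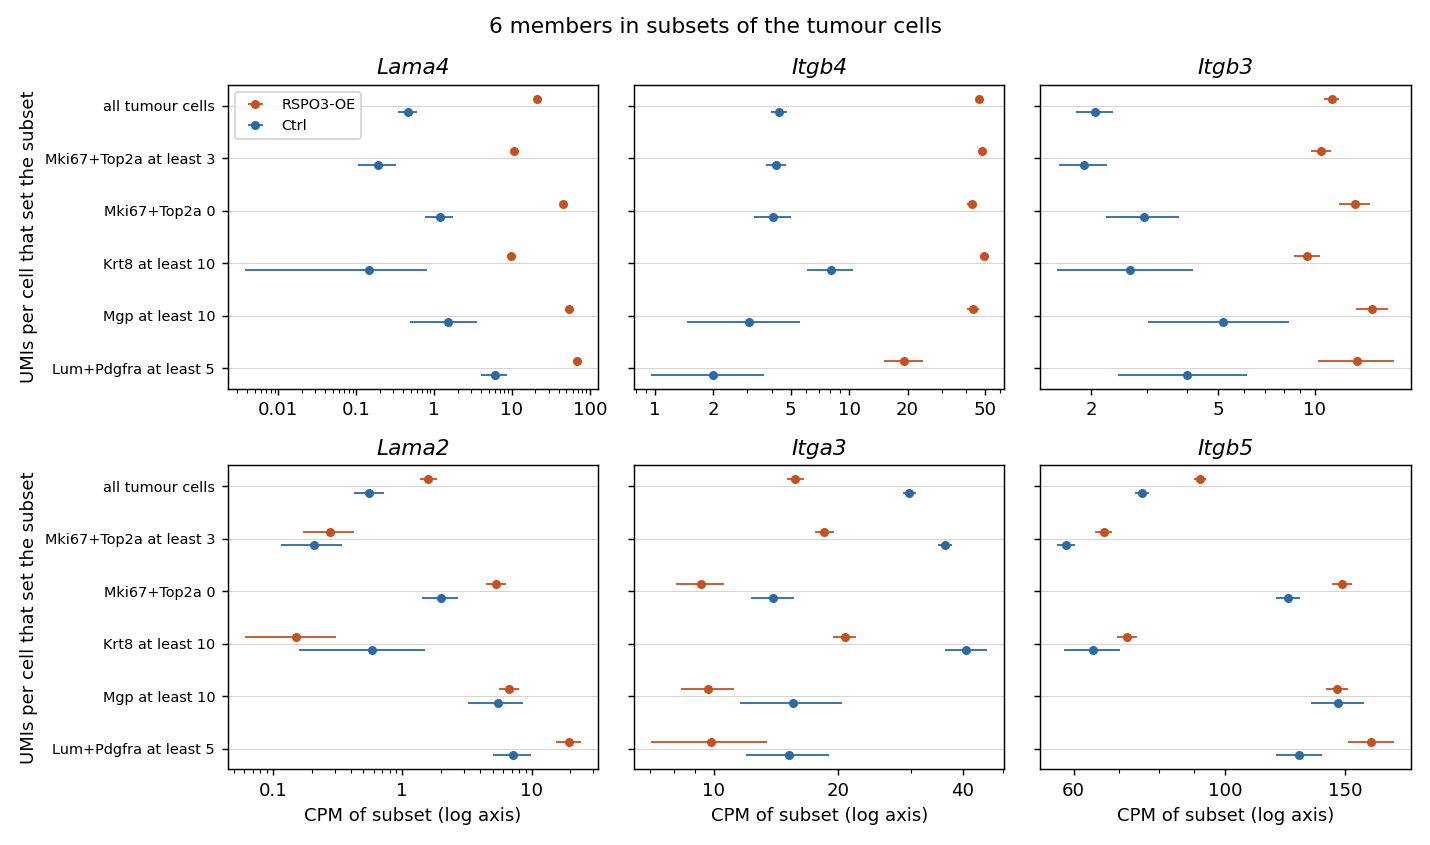
CPM on log axes, with exact 95% Poisson intervals, of Lama4, Itgb4, Itgb3, Lama2, Itga3 and Itgb5 in all tumour cells and in subsets set by UMIs per cell of the genes named on the left; RSPO3-OE is orange and Ctrl blue, and each panel has its own range. Lama4, Itgb4 and Itgb3 were higher in RSPO3-OE in every subset drawn, and Lama4 was highest in cells with Lum and Pdgfra or with Mgp. Lama2 was at 0.151 CPM in RSPO3-OE against 0.587 CPM in Ctrl cells with Krt8, with intervals that overlap.

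Lamb1 and Lamc1, the beta and gamma chains of most laminins, were the laminin genes with the highest levels, Lamb1 at 162 CPM in RSPO3-OE against 173 in Ctrl and Lamc1 at 103 and 92.6 CPM. Their log2 ratios were -0.09 (-0.12 to -0.06) and 0.16 (0.12 to 0.20), both well inside 1.5-fold, and the sign of the first turned under another scaling (0.00). Lamb2, the beta chain of vessel and synapse laminins, was at 16.2 against 13.9 CPM. Lamb3, a beta chain of epithelial laminin, had 4 UMIs in RSPO3-OE against 0 in Ctrl tumour cells. Lamc3 stood at 0.390 against 0.311 CPM, with a log2 ratio of 0.32 (-0.36 to 1.02).

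Of the integrin beta chains, the laminin receptor chain Itgb4 and the RGD receptor chain Itgb3 were higher in the RSPO3-OE tumour cells. Itgb4 (ENSMUSG00000020758, chromosome 11, 115974709 to 116008412, plus strand) had 46.8 CPM (45.6 to 48.1) in RSPO3-OE against 4.37 CPM (3.98 to 4.79) in Ctrl, a log2 ratio of 3.42 (3.28 to 3.56). Itgb3, on the same chromosome from 104608000 to 104670476 (ENSMUSG00000020689, plus strand), had 11.3 CPM (10.7 to 11.9) against 2.06 CPM (1.79 to 2.35), a log2 ratio of 2.46 (2.25 to 2.67). In cells thinned to 2000 UMIs, Itgb4 was read in 7.74% (6.95 to 8.59) of RSPO3-OE tumour cells against 1.04% (0.762 to 1.39) of those in Ctrl, and Itgb3 in 2.50% (2.05 to 3.02) against 0.580% (0.375 to 0.854). Before thinning, 1890 RSPO3-OE and 318 Ctrl tumour cells held Itgb4, and 989 and 201 held Itgb3. As background, 1.35% and 0.172% of unthinned macrophages held Itgb4 and 0.508% and 0.344% held Itgb3. Unlike Lama4, Itgb4 differed little between dividing and non-dividing cells, at 48.1 against 42.9 CPM in RSPO3-OE and 4.22 against 4.06 CPM in Ctrl. It stood at 49.5 CPM in RSPO3-OE cells with high Krt8, 43.6 CPM in those with high Mgp and 19.2 CPM in those with Lum and Pdgfra, and at 8.07, 3.04 and 1.99 CPM in the same Ctrl subsets.

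The other beta chains tested in tumour cells lay inside 1.5-fold. Itgb1, the shared chain of the collagen, laminin and fibronectin receptors, had the highest level of all members, 462 CPM (458 to 466) in RSPO3-OE against 409.9 CPM (406 to 414) in Ctrl. Its log2 ratio was 0.17 (0.15 to 0.19). Itgb5, an RGD receptor chain, was at 92.0 and 75.6 CPM, and Itgb8, which binds latent TGF-beta with alpha V, at 7.86 and 5.48 CPM with a log2 ratio of 0.52 (0.37 to 0.67). Itgb7 and Itgb2 are known as leukocyte chains, yet both were read in tumour cells: Itgb7 at 47.8 against 34.6 CPM and Itgb2 at 18.2 against 25.5 CPM. In tumour cells with no C1q UMI the levels were much the same, 47.5 and 35.4 CPM for Itgb7 and 18.0 and 26.8 CPM for Itgb2, and Itgb2 stood at 7.38% and 12.3% of its macrophage level where the C1q genes reached 0.164%. The alpha chains that pair with Itgb2 were scarce there, Itgam at 1.01 and 0.689 CPM, Itgax at 0.295 and 0.359 CPM and Itgal at 26 and 19 UMIs. Itgb6, an epithelial RGD receptor chain, had 6 UMIs in RSPO3-OE against 0 in Ctrl, and Itgb2l had none, so both were under the minimum.

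The alpha chains of the tumour cells went in both directions. Among the collagen-binding chains, Itga10 (ENSMUSG00000090210, chromosome 3, 96645584 to 96664519, plus strand) was lower in RSPO3-OE, at 2.26 CPM from 261 UMIs against 4.70 CPM from 498 UMIs, a log2 ratio of -1.06 (-1.28 to -0.84). Itga1 was at 0.598 against 1.11 CPM (log2 ratio -0.90), and Itga2 went the other way at 0.572 against 0.311 CPM (log2 ratio 0.88, 0.25 to 1.53), each from 118 UMIs or fewer. The Itga1 difference was seen in dividing cells (log2 ratio -0.87, -1.61 to -0.15) and not in non-dividing ones, where RSPO3-OE was at 1.58 against 1.04 CPM (0.60, -0.21 to 1.44). The highest single cell held 18 of its 69 UMIs in RSPO3-OE and 25 of its 118 in Ctrl. Itga11 had 2 UMIs in RSPO3-OE against 0 in Ctrl. The direction of the collagen-binding chains was thus not shared.

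Among the laminin-binding alpha chains, Itga3 and Itga6 differed in opposite directions. Itga3 (ENSMUSG00000001507, chromosome 11, 95044474 to 95076801, minus strand) had 15.7 CPM (15.0 to 16.5) in RSPO3-OE against 29.7 CPM (28.7 to 30.8) in Ctrl, a log2 ratio of -0.92. Itga6, the partner of Itgb4, had 152 CPM (149 to 154) and 111 CPM (109 to 113), a log2 ratio of 0.44 (0.41 to 0.48) that stayed inside 1.5-fold. Itga6 thus stood above Itgb4 in both libraries, and the distance between the partner chains was the smaller one in RSPO3-OE. Itga7, a muscle laminin receptor, was at 0.893 and 0.613 CPM. Of the RGD-binding chains, the fibronectin receptor Itga5 was at 64.1 and 46.1 CPM (log2 ratio 0.48), Itgav at 36.7 and 41.8 CPM (-0.19) and Itga2b, known from platelets, at 1.01 and 1.49 CPM (-0.56). Itgae, a chain of T cells in epithelia, was counted as lower on 34 and 52 UMIs, with a log2 ratio of -0.74 (-1.40 to -0.08).

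**Figure D4:**
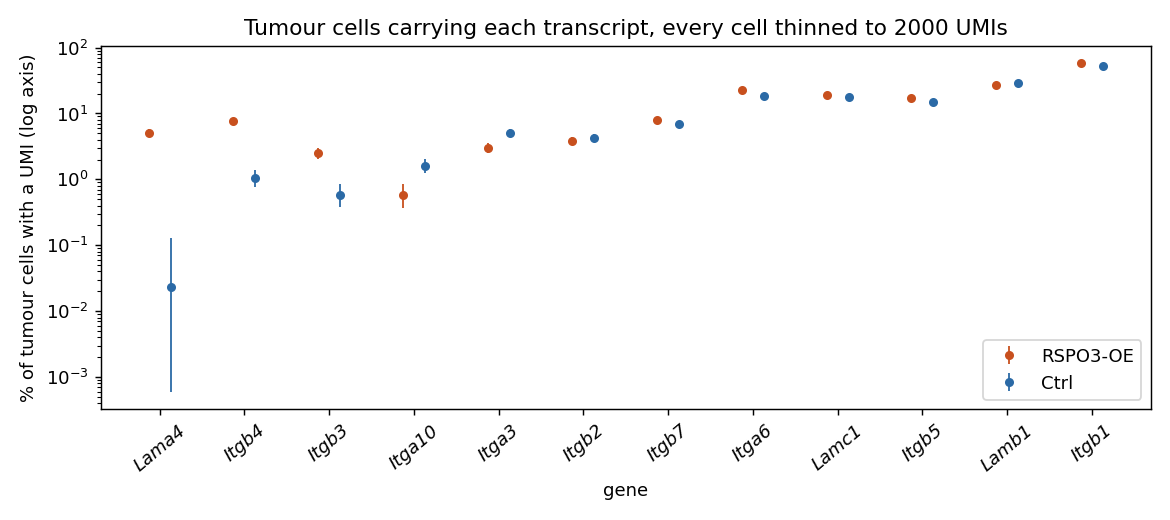
Share of tumour cells with at least 1 UMI of 12 members after each cell was thinned to 2000 UMIs, on a log axis, with exact 95% Clopper-Pearson intervals; RSPO3-OE is orange and Ctrl blue. The gap is widest for Lama4, at 5.02% against 0.0232%, while Itga10 (0.571% against 1.60%) and Itga3 (3.02% against 5.12%) have the lower share in RSPO3-OE.

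Whether partner chains were read in the same cells differed by pair. With cells thinned to 2000 UMIs, Itgb4 was read in 9.65% (7.86 to 11.7) of RSPO3-OE tumour cells that held Itga6 and in 7.17% (6.30 to 8.11) of those that did not, and in 1.15% and 1.02% of the Ctrl cells. Lamc1 was read in 22.6% of Ctrl cells that held Lamb1 and 16.2% of those that did not, and in 20.7% and 18.2% in RSPO3-OE. Itgb3 was read in 3.03% of RSPO3-OE cells with Itgav and 2.45% of those without, with intervals that overlap widely. Itgb1 was read in 58.1% (54.6 to 61.6) of Ctrl cells with Itga6 and 51.6% (49.9 to 53.2) of those without, and in 61.7% and 56.9% in RSPO3-OE. Some other pairs went the other way or differed by library, with intervals that overlap. Itgb1 was read in 55.5% of RSPO3-OE tumour cells with Itga5 and 58.3% without, and in 49.7% and 53.1% in Ctrl. In T cells with and without Itgal, Itgb2 was read in 29.5% and 32.6% in RSPO3-OE, and in 38.0% and 35.3% in Ctrl. In T cells with and without Itga4, Itgb1 was read in 29.9% and 20.8% in RSPO3-OE, and in 20.7% and 24.6% in Ctrl. In T cells Itgb7 was read in 2 of 3 RSPO3-OE cells with Itgae (66.7%, 9.43 to 99.2) and in 6.05% (3.91 to 8.86) of those without, and in Ctrl in 2 of 2 and in 3.54%, so few cells that the first shares are hardly bounded.

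Some of the members differed with the division state of the tumour cell in both libraries. Of the 28 tested, 4 were at least 1.5-fold higher in dividing than in non-dividing tumour cells in both libraries, where 12.1% of all genes were: Itga2, Itga3, Itga6 and Itgb7. A larger group of 10 was at least 1.5-fold lower in both, against 8.32% of all genes: Itga1, Itga2b, Itga10, Itgb5, Itgb8, Lama2, Lama4, Lama5, Lamb2 and Lamc1. The other 14 were neither, Itgb1, Itgb3, Itgb4 and Lamb1 among them. Itgb8 was 3.62 CPM in dividing and 18.3 CPM in non-dividing RSPO3-OE cells, and 2.77 and 13.1 CPM in Ctrl. Itgb7 went the other way, with 58.0 and 25.8 CPM in RSPO3-OE and 40.9 and 19.2 CPM in Ctrl. Ctrl non-dividing cells held no Itga2 UMI, and the floor of 3 counts stood in for it. The Ctrl values were also thin for Lama5 (log2 ratio of dividing over non-dividing -1.43, -3.99 to 1.35) and Itga1 (-0.68, -1.45 to 0.14), whose intervals span 0. Dividing cells were the deeper ones, with a median of 32508 against 17967 UMIs in RSPO3-OE and 28901 against 15030 in Ctrl, and its part in these differences was not tested.

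Within the RSPO3-OE tumour cells, Lama4, Itgb4 and Itgb3 were not higher in cells with many Rspo3 UMIs than in cells with none. In 347 tumour cells with at least 10 Rspo3 UMIs, Lama4 was at 9.11 CPM (7.41 to 11.1), Itgb4 at 43.2 CPM (39.3 to 47.3) and Itgb3 at 8.83 CPM (7.16 to 10.8). In 3271 cells with none, they were at 23.8 CPM (22.7 to 24.8), 48.1 CPM (46.7 to 49.6) and 11.9 CPM (11.2 to 12.6). All 3 were thus at or below their level in cells without an Rspo3 UMI, and all 3 were above the Ctrl level in both kinds of cell. A cell without an Rspo3 UMI may still have carried the transcript unread. The cells with at least 10 were deeper, with a median of 28727 against 24491 UMIs, and the part of depth was not tested. Cells with fewer than 10 Rspo3 UMIs but at least 1 were not compared.

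In macrophages few members passed 1.5-fold, a share near that over all genes. Of 15 members tested, 1 was at least 1.5-fold higher in RSPO3-OE (6.67%, background 8.46%) and 0 were lower (background 5.11%, and 13.6% in either direction), with a median log2 ratio of -0.00 against 0.04 over all 10654 genes tested. The complement receptor chain Itgam led at 346 CPM (336 to 355) in RSPO3-OE against 385 CPM (376 to 395) in Ctrl. Its partner Itgb2 was at 247 and 207 CPM, Itgb1 at 219 and 194 CPM, and Itgb5 at 177 and 206 CPM. The log2 ratios of these 4 lay between -0.22 and 0.25. Itgax, the other complement receptor chain, was at 115 and 129 CPM. Itga9, which binds tenascin and VCAM-1, was at 40.3 CPM in both libraries, and Itga8, whose partner is Itgb1, was read in macrophages at 1.71 and 2.42 CPM and had no UMI in tumour cells. The other tested members, Itga4, Itga5, Itga6, Itgal, Itgav, Itgb7 and Lamb1, had log2 ratios between -0.32 and 0.37.

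Lamc1 was the macrophage member counted as higher, at 9.57 CPM (8.05 to 11.3) against 6.37 CPM (5.18 to 7.74), a log2 ratio of 0.59 (0.21 to 0.97) that just reached the threshold. Those levels are 9.27% and 6.88% of the tumour cell level, and the matrix gene Col3a1, read as carried RNA, stood in macrophages at 6.91% of its tumour cell level in RSPO3-OE against 10.0% in Ctrl. The Ctrl share of Lamc1 was thus below that of Col3a1. Other genes of tumour cells stood lower in macrophages: Hmga2 at 1.93% and 1.60%, Sparc at 3.37% and 3.87% and Krt8 at 2.34% and 2.27%. Both Lamc1 shares lay above these, and the part of carried RNA in the difference was not tested. The ratio lay inside 1.5-fold in 3 of 10 alternatives, down to 0.36 under stricter gates. Of the other members, 23 had fewer than 50 UMIs in macrophages, 7 of them none, and Itgb4 had 17 against 2. With doublet calls ignored 7 members were higher.

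T cells carried the integrins known from lymphocytes. Itgb2 was at 221 CPM (205 to 237) in RSPO3-OE against 164 CPM (147 to 183) in Ctrl, its partner Itgal, which makes LFA-1 with it, at 148 and 104 CPM, Itgb1 at 155 and 178 CPM, Itga4 at 139 and 146 CPM and Itgav at 152 and 106 CPM. None of these 5 differed by 1.5-fold. Itgb7, which joins Itga4 or Itgae in receptors for gut homing and epithelial retention, was higher in RSPO3-OE, at 36.7 CPM (30.5 to 43.8) against 18.1 CPM (12.7 to 25.1), a log2 ratio of 1.02 (0.47 to 1.60). Within RSPO3-OE it stood at 196 CPM (142 to 263) in 31 T cells with Cd4 and no Cd8a or Cd8b1 UMI, and at 7.65 CPM (4.73 to 11.7) in 327 with at least 2 UMIs of Cd8a and Cd8b1 together and no Cd4. The Ctrl library held 5 and 173 such cells, with 7.35 CPM (3.91 to 12.6) in the second kind, and the intervals of the libraries overlap in the CD8 cells. Of the laminin chains Lamb3 and Lamc1 were both read in T cells at levels of this order, Lamb3 at 25.5 CPM (20.4 to 31.4) and 35.7 CPM (27.9 to 45.0), where tumour cells held 4 and 0 UMIs of Lamb3.

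Of 12 members tested in T cells, 1 was higher (8.33%, background 7.5%) and 5 were lower in RSPO3-OE (41.7%, background 9.87%): Lamb1, Itgb5, Itga1, Itga6 and Lamc1. In either direction 17.4% of the 7636 genes tested passed 1.5-fold, and the median log2 ratio was -0.35 over the members and -0.01 over all genes. Lamb1 was at 12.7 CPM (9.21 to 17.1) against 42.2 CPM (33.7 to 52.3), a log2 ratio of -1.73 (-2.30 to -1.18). Itgb5 was at 6.81 against 20.1 CPM, Itga6 at 16.3 against 26.2 CPM, Lamc1 at 23.1 against 35.7 CPM and Itga1 at 21.3 against 40.2 CPM. Except for Itga1, these genes stood higher in tumour cells than in T cells in both libraries, and genes that mark tumour cells were higher in the Ctrl T cells: Hmga2 was at 16.3 CPM in RSPO3-OE against 58.8 in Ctrl and Sparc at 54.8 against 141 CPM. In Ctrl these are 21.8% and 24.7% of the tumour cell levels. Krt8 stood apart, at 48.2 against 120 CPM, which in Ctrl is 138% of its tumour cell level. An alternative chosen after seeing this left out every T cell with an Hmga2 UMI, 18 in each library, which held 9.17% of the RSPO3-OE and 29.2% of the Ctrl T cell UMIs. Then 1 member was higher and 2 were lower. Lamb1 was then 2.28 against 5.68 CPM, on 7 and 8 UMIs, and Itgb5 3.26 against 2.84 CPM, on 10 and 4. The log2 ratio of Lamc1 turned to 0.15, and Itga6 dropped under the minimum of 50 UMIs. Itga1, which makes the collagen receptor of resident T cells with Itgb1, remained lower, at 22.5 against 51.9 CPM and a log2 ratio of -1.21, and Itgb7 remained higher at 0.94. The 4 NK cell genes on the list were split in the whole T cell class. Klrb1c, at 12.1 against 30.7 CPM, and Ncr1, with 0 against 8 UMIs, differed the same way as Itga1. Klrk1, which CD8 T cells also carry, at 348 against 272 CPM, and Eomes, at 17.5 against 12.6 CPM, went the other way. The part of NK-type cells in the Itga1 difference was not tested. Lamb3 then was the other lower member, at -0.82. Of the 26 members under the minimum in T cells, 10 had no UMI.

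**Figure D5:**
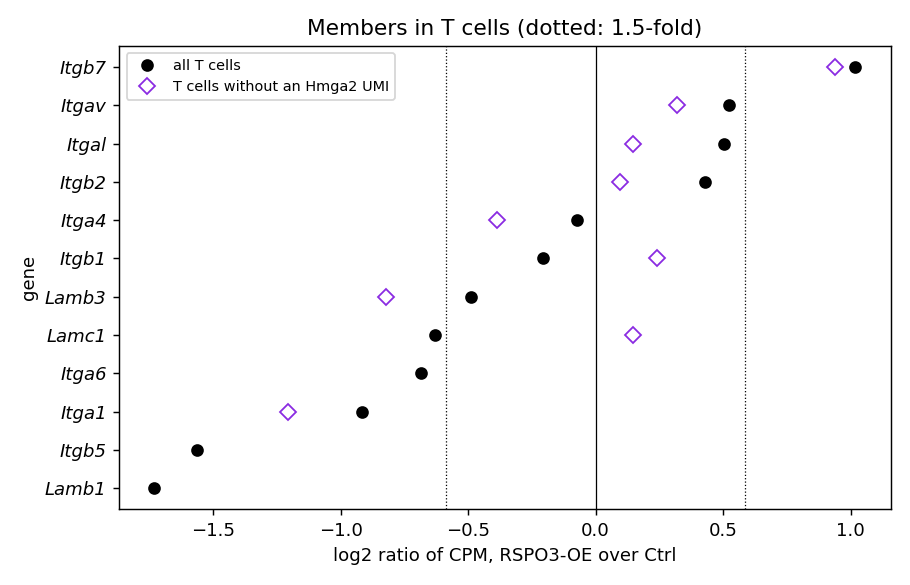
Log2 ratio of CPM, RSPO3-OE over Ctrl, of the 12 members tested in T cells, for all T cells (black) and without the T cells that held an Hmga2 UMI (open diamonds, drawn where at least 50 UMIs were left); dotted lines mark 1.5-fold. Lamc1 moves from -0.63 to 0.15, whereas Itga1 and Itgb7 keep their side.

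The other genes of the pathway were taken from 4 lists. In tumour cells, 3 of 27 tested integrin activators and adaptors were higher and 1 was lower, where 9.93% of all genes were higher and 14.4% lower. Those with the highest log2 ratios were Rasgrp2, which switches on Rap1 (1.65 against 0.198 CPM, log2 ratio 3.05), and the focal adhesion kinase relative Ptk2b (1.85 against 0.661 CPM, 1.49), with the integrin activator Fermt2 next at 133 against 80.8 CPM (0.72). The lowest were the adaptors Pxn, paxillin (25.3 against 38.9 CPM, -0.62), and Bcar1 (-0.34). Of 13 basement membrane partners and laminin receptors, 2 were higher, Sparc (0.65) and the type IV collagen chain Col4a2 (0.64), and 1 was lower, the nidogen Nid2, at 0.251 against 1.28 CPM (-2.35), with Agrn next at -0.49. Of 4 hemidesmosome genes, 1 was higher, the keratin Krt14 (0.927 against 0.198 CPM, 2.23), with Plec, the plectin that binds the beta 4 tail, next at 544 against 370.1 CPM (0.56), and Dst lowest at -0.24 and Cd151 at 0.05. Of 15 integrin ligands, 5 were higher and 2 lower: Ccn2 (1.98), Npnt (1.91), fibronectin, Fn1 (594 against 312 CPM, 0.93), F11r and Nrros were higher, and Thbs1 (-0.96) and osteopontin, Spp1 (1788 against 2945 CPM, -0.72), lower. Over all 4 lists the median was 0.22 for 58 genes, against -0.10 over all genes.

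In macrophages, 9 of 47 such genes were higher and 2 lower (background 8.46% and 5.11%), with a median of 0.25 against 0.04 over all genes. The activators and adaptors gave 4 of 26, with Tns1 (1.80) and Ptk2 (0.71) highest and Parvg (-0.28) and Bcar1 (-0.11) lowest. The ligands gave the widest spread: the E-cadherin gene Cdh1 (14.0 against 3.18 CPM, 2.14), Thbs1 (452 against 200.3 CPM, 1.18) and Vcam1 (1.16), which the alpha 4 integrins bind, were higher, and Icam2 (-0.76) and Spp1 (-0.70) lower. Col4a2 (0.83) and Nid1 (0.58, inside 1.5-fold) had the highest ratios of the basement membrane genes. Col4a2 was at 8.61 against 4.84 CPM in macrophages where tumour cells had 259 and 166 CPM, and Nid1 at 2.94 against 1.97 CPM where tumour cells had 86.9 and 66.2 CPM. As shares of the tumour cell level these lie below those of Col3a1, as do those of Ptk2. The shares of Col4a2 and Nid1 lie above those of Hmga2 (1.93% and 1.60%) and Krt8 (2.34% and 2.27%). The part of carried RNA was not tested. Cd151 (-0.20) and Col4a1 (0.05) were lowest, and Plec (0.69) and Dst (0.58) led the hemidesmosome genes. In T cells 2 of 33 were higher, Icam1 (0.81) and Tgfb1 (0.76), and 14 were lower (background 7.5% and 9.87%). The lowest of each list were Vcam1 (-3.23) and Ccn1 (-2.60), Hspg2 (-1.63) and Sparc (-1.37), Tns3 (-1.76) and Actn1 (-1.55), and Cd151 (-1.26) and Dst (-1.11), and the highest adaptors Rap1b (0.51) and Rap1a (0.32) and the highest basement membrane gene Col4a2 (-0.31) lay inside 1.5-fold. Without T cells that held an Hmga2 UMI, 5 T cell genes of these lists were past 1.5-fold in place of 16.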

How the data were processed

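The deposited matrices hold raw counts of UMIs per gene and cell barcode. Per the submitters' processing notes the authors used Cell Ranger 3.0.1 and the mm10 build, from Chromium 3′ libraries, per the labels' protocols. Each library is 1 GEO sample, and nothing in the labels names the number of mice in it.

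Cells with at least 200 genes and at most 20% mitochondrial UMIs were kept, and doublets called by Scrublet in scanpy 1.11.5 (expected rate 0.05) were removed, 171 (2.39%) in RSPO3-OE and 95 (1.36%) in Ctrl. Scripts ran in Python 3.11.15 with numpy 2.4.6, scipy 1.17.1 and pandas 2.3.3. UMIs were summed per class and library. Poisson intervals serve for levels, Clopper-Pearson intervals for shares, and a binomial interval for ratios, all exact at 95%. A gene with 0 UMIs entered a ratio at a floor of 3 counts. Thinning to 2000 UMIs was 1 random draw, and it left out as too shallow 2 RSPO3-OE and 3 Ctrl tumour cells, 10 and 9 macrophages, and 6 and 3 T cells. The code was tested on simulated data. 1 member is counted in the totals but not reported here. The other members past 1.5-fold were named with values and the rest by level or range, and of each partner list the 2 highest and 2 lowest ratios per class. The genes, lists, gates and tests were chosen with earlier results of these data known, and the alternatives that leave out T cells with an Hmga2 UMI or tumour cells with an endothelial UMI were chosen after seeing the data. The other alternatives changed the filters on cells, the gates, the treatment of doublets, the scaling, the depth, the UMI minimum and the fold. Upstream sequences came from RefSeq, and gene positions from GENCODE vM21.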

Additional observations from a re-analysis of the deposited data

Results flagged for a closer look

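Lamc1, the gamma chain of most laminins, had log2 ratios of RSPO3-OE over Ctrl in opposite directions in 2 cell classes, 0.59 in macrophages and -0.63 in T cells. The difference between the classes was not tested, since each genotype has 1 library. Without the T cells that held an Hmga2 UMI the T cell value was 0.15.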

How the results depend on the processing

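With 1 library per genotype, intervals cover counting error only, and mouse, dissection and library preparation cannot be told apart from genotype. Members with few UMIs, such as Lama5, Itga1 and Itgae, rest on depth. All 11 tumour cell members past 1.5-fold kept their direction in every alternative that gave a value, and 10 of them stayed past 1.5-fold. Lama4 ranged from 4.95 (tumour cells by Y-linked genes, no Hmga2 condition) to 6.42 (stricter gates), Itgb4 from 3.09 to 3.52 and Itgb3 from 1.78 to 2.60. No paired analysis was possible because each genotype has 1 library.

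The counts past 1.5-fold moved as follows, and the cause was not tested unless the alternative holds fewer or more genes by construction. In tumour cells the 7 higher members became 3 in cells thinned to 2000 UMIs, the 4 lower ones 2 when thinned, 2 at a minimum of 200 UMIs and 1 at 2-fold, and the 15 partner genes 6 at 2-fold. In macrophages the 1 higher member became 0 at 10% mitochondrial UMIs, under stricter gates, with median-of-ratios scaling and at 2-fold, 7 with doublet calls ignored, 3 with cells that pass 2 gates kept, 10 at a minimum of 10 UMIs and 11 with none. The 0 lower macrophage members became 1 with doublet calls ignored, under stricter gates and at 10 UMIs, and 4 with no minimum. The 11 macrophage partner genes became 22 with doublet calls ignored, 18 with cells of 2 gates kept, 24 with no minimum and 4 at 2-fold. In T cells the 1 higher member became 2 with doublet calls ignored, 0 by the mean of cells' own CPM, 6 at 10 UMIs, 0 at 200 and 6 with no minimum. The 5 lower T cell members became 3 with doublet calls ignored, 3 with cells of 2 gates kept, 0 when thinned, 0 at 200 UMIs, 11 with no minimum, 2 at 2-fold and 2 without T cells that held an Hmga2 UMI. The 16 T cell partner genes became 9 with doublet calls ignored, 3 when thinned, 31 at 10 UMIs, 6 at 200, 40 with no minimum and 5 without Hmga2 cells. Between classes, the 11 members higher in tumour cells than macrophages became 7 when thinned. The 7 higher in tumour than T cells became 1 with doublet calls ignored and 4 with median-of-ratios scaling or when thinned. The 4 higher in T cells than macrophages became 2 with doublet calls ignored, 0 when thinned, 8 at 10 UMIs, 0 at 200 and 11 with no minimum. In T cells, Itga6 turned to 0.029 with doublet calls ignored and Lamc1 to 0.15 without Hmga2 cells. Of the other counts, leaving aside those per partner list, 160 kept close to their main value. Of the single gene values, medians and counts per partner list, 773 kept close and 124 moved.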

Other observations

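Other host cells, gated by UMIs outside the 3 classes, carried integrins of their own. In 37 RSPO3-OE cells of NK type, with Ncr1 or Klrb1c and no Cd3 gene, Itgal stood at 196 CPM, Itgb7 at 108 CPM (75.9 to 150) and the collagen receptor chain Itga1 at 93.3 CPM (63.4 to 132). In 160 RSPO3-OE and 41 Ctrl monocyte-type cells with Ly6c2, Itgam was at 288 and 472 CPM, Itgb2 at 265 and 258 CPM and Itgb7 at 97.2 and 100.5 CPM. In 69 RSPO3-OE neutrophils Lamb3, the laminin chain that was otherwise read mostly in T cells, was at 54.7 CPM (22.0 to 113) on 7 UMIs. The Ctrl library held 19 NK-type cells and 13 neutrophils, under the minimum of 20 cells, so no level is given for them.

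Host cells without Ptprc, 48 in RSPO3-OE and 23 in Ctrl, were rich in the matrix side of these genes. Lamb1 was at 133 and 184 CPM there, Lamc1 at 98.4 and 219 CPM, Lama2 at 12.1 and 38.5 CPM, and Itga1 at 53.5 and 59.3 CPM. Of all Lamb3 UMIs in kept cells, 69.4% in RSPO3-OE and 84.5% in Ctrl lay in T cells.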
